A study of Mus musculus with 18 samples.

Results

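Mouse embryonic stem cells depleted of nucleolin were set against control cells that had received the same drug. The comparison used 9 of the 18 arrays of the series, picked by the line and the drug state in their labels and not by any measured value: 3 arrays of line Ncl-1, 3 of line Ncl-2 and 3 of line EGFP, all after 3 days with tetracycline (Tc). All carried a stably integrated, Tc-inducible siRNA in CGR8 cells, embryonic stem cells from mouse strain 129P2/Ola. The siRNAs of Ncl-1 and Ncl-2 were directed against nucleolin, and that of the control line against EGFP, a jellyfish-derived protein that mouse cells do not have. All 9 arrays share the drug, the siRNA machinery and the 3 days, so the groups differ in the line and in the target of its siRNA. The other 9 arrays, of the same 3 lines kept 3 days without Tc (-Tc), were used to show which differences between the lines were there without induction.

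Each group is 1 stable line, and the sources used here do not say whether a line is a clone. What the siRNA did and what else set the lines apart therefore cannot be told apart within the 9 arrays alone. The labels number the replicates 1 to 3 but do not say that they were separate cultures, so the p-values measure the spread between these arrays, which may be technical.

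Nucleolin, encoded by Ncl, is one of the most abundant proteins of the nucleolus, the nuclear body in which ribosomal RNA is transcribed and cut and in which ribosomal subunits are assembled. It binds ribosomal RNA precursors and chromatin, and it also binds mRNAs outside the nucleolus. When ribosome production is disturbed, free ribosomal proteins can bind Mdm2, the ubiquitin ligase that keeps the transcription factor p53 low, and p53 then raises genes of cell cycle arrest and cell death. Embryonic stem cells divide fast, have a short G1 phase, and keep their identity through a set of transcription factors that includes Pou5f1, Sox2 and Nanog.

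Each array was an Illumina Mouse-6 v2 BeadChip, on which biotinylated cRNA from 1 RNA sample is read as the fluorescence of 45281 probes. Between 18099 and 21015 probes per array were detected (detection p below 0.05), and the mean deposited intensity was 279.9 to 836.7. The arrays of replicate 3 stood apart from those of replicates 1 and 2 on the first principal component, with 45.6% of the variance, and the nucleolin arrays with Tc stood apart from all others on the second, with 28.7%. The replicate number was a term of every comparison because the rule that defined the main one named it as a block. Each nucleolin array was thus set against the EGFP array of its own number. Values below are log2 signals after background correction and quantile normalisation, a difference is a difference of log2 signals (1 is 2-fold), and errors of differences are standard errors of a limma fit over 10557 genes. A gene was called higher or lower where its Benjamini-Hochberg adjusted p was below 0.05.

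One conflict in the labels bears on the 2 nucleolin lines taken singly, and on the errors of every comparison. Gene by gene, the Ncl-1 minus Ncl-2 difference with Tc correlated between replicates 1 and 2 (Pearson r = 0.61 over 10557 genes, which are not independent), but that of replicate 3 ran the other way (r = -0.48 against replicate 1 and -0.57 against replicate 2). Of 186 genes that were at least 2-fold apart in the same direction in replicates 1 and 2, 182 had the opposite sign in replicate 3. The arrays labelled Ncl-1 and Ncl-2 in replicate 3 thus go against the line labels of the other replicates. The cause was not tested. The comparison of both nucleolin lines with the EGFP line averages 1 array of each line in every replicate, so its estimate does not change with which of the 2 carries which name. Its standard errors and calls can change, because the fit holds a mean for each label. A gene that differs between the nucleolin lines then spreads wider within a label. For Igf2 limma's adjusted p was 0.00612 over all 3 replicates and 0.000412 with replicates 1 and 2 only. By label over all 3 replicates, only the arrays' signals, a plot of differences and counts of called genes are given, and every difference between the 2 nucleolin lines comes from replicates 1 and 2.

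The siRNA target was checked first. Ncl had log2 signals of 11.12, 11.22 and 11.77 on the 3 EGFP arrays with Tc, 7.10, 6.48 and 7.52 on the Ncl-1 arrays and 7.12, 6.42 and 7.43 on the Ncl-2 arrays. Every nucleolin array was far below every EGFP array. The difference was -4.36 ± 0.19, which leaves 4.87% of the control signal (adjusted p = 6.05e-10). Without Tc the nucleolin lines did not differ from the EGFP line by the test (0.23 ± 0.19, adjusted p = 0.471), and the departure of the difference with Tc from that without was -4.59 ± 0.27 (adjusted p = 1.1e-07). Ncl had the largest negative difference of all genes that lay below the EGFP array in every replicate.

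Markers of embryonic stem cells were present throughout. All 8 markers looked up for them (Pou5f1, Sox2, Nanog, Zfp42, Esrrb, Dppa5a, Utf1 and Tdgf1) were detected on 18 of 18 arrays. Of 7 markers of fibroblasts, the cells often used as feeders, Dcn and Lum were detected on 0 arrays, Col3a1 and Postn on 1, Col1a1 and Col1a2 on 2, and Thy1 on 18. In these bulk samples, fewer cells of a type and less RNA per cell cannot be told apart.

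Depleted and control cells differed at a large share of the genes measured. Of 10557 genes, 4666 (44.2%) were called, 2263 higher (21.4%) and 2403 lower (22.8%) in the nucleolin lines. The median gene differed by -0.04. Most differences were modest: 936 higher and 607 lower genes were at least 2-fold apart, and 169 and 55 at least 4-fold. Both nucleolin arrays lay above the EGFP array in all 3 replicates for 2303 genes (21.8%) and below it for 2490 (23.6%). For 2568 genes (24.3%) all 6 nucleolin arrays lay on 1 side of all 3 EGFP arrays. Without the replicate term the spread between the replicates enters the error, and 2188 genes (20.7%) were called, 1219 higher (11.5%) and 969 lower (9.18%). The shares of 21.4% and 22.8% are the background against which the gene groups below are read.

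Part of these differences was there without induction too. Between the same lines without Tc, 1538 genes (14.6%) were called, 732 higher (6.93%) and 806 lower (7.63%). The count was 721 without the EGFP array of replicate 3 without Tc, 874 without that of replicate 1 and 234 without the replicate term. Of the 2263 genes higher with Tc, 469 (20.7%) were also higher without it, which is 64.1% of the 732 and 4.44% of all genes. Of the 2403 lower with Tc, 570 (23.7%) were also lower without it, which is 70.7% of the 806 and 5.4% of all genes. A further test asked whether the difference with Tc departed from that without. It called 1513 genes (14.3%), 934 upward (8.85%) and 579 downward (5.48%). That count was 990 without the EGFP array of replicate 2 without Tc and 347 without the replicate term. Among the genes higher with Tc it called 865 (38.2%) upward, and among the lower ones 487 (20.3%) downward. For 1018 higher and 1385 lower genes neither the lines without Tc nor the departure from them passed the test, so their difference is assigned to neither.

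**Figure D1:**
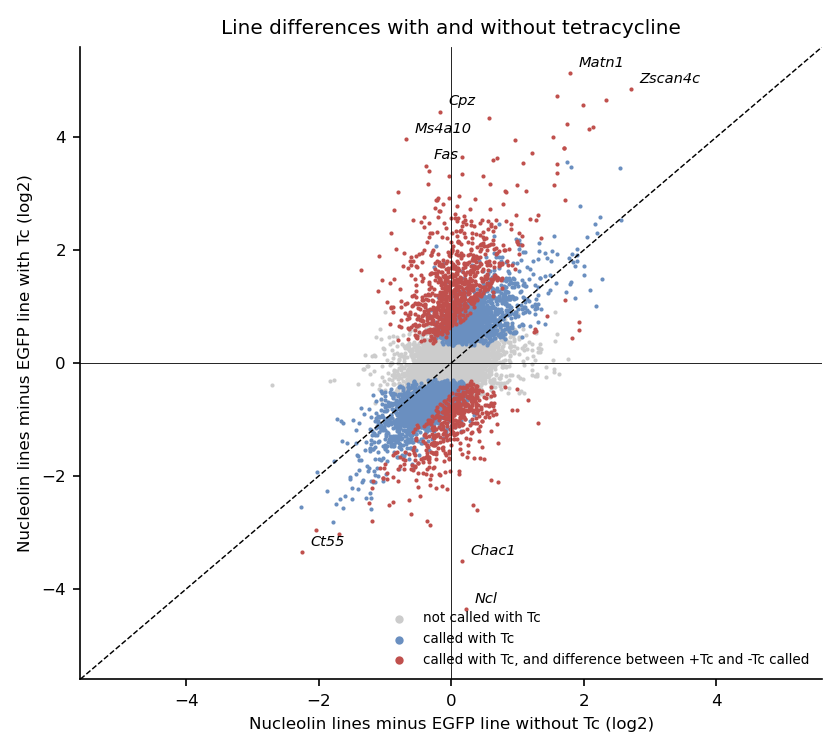
Each point is 1 of 10557 genes, placed by its log2 difference between the nucleolin lines and the EGFP line without Tc (horizontal) and with Tc (vertical), with colours for genes called with Tc and genes whose difference also changed with Tc; the dashed line marks equal differences. Ncl, Chac1, Cpz and Fas lie near 0 without Tc and far from 0 with it, while Matn1, Zscan4c and Ct55 were already displaced without Tc.

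The genes with the largest positive differences held a protein of the cartilage matrix, an extracellular peptidase, an epidermal caspase and a block of genes of the 2-cell embryo. Matn1, matrilin 1 of the cartilage matrix, had log2 signals of 6.45, 5.95 and 6.26 on the EGFP arrays, 11.74, 11.11 and 11.11 on the Ncl-1 arrays and 11.47, 11.10 and 11.60 on the Ncl-2 arrays. The groups did not overlap, and the difference was 5.14 ± 0.20 (35.2-fold, adjusted p = 2.27e-10). Cpz, a carboxypeptidase that binds the matrix, was 5.86, 5.26 and 4.84 on the EGFP arrays, 9.94, 9.50 and 9.83 on the Ncl-1 arrays and 10.32, 9.81 and 9.23 on the Ncl-2 arrays. Again no nucleolin array reached down to an EGFP array, and the difference was 4.45 ± 0.21 (adjusted p = 1.26e-09). Without Tc, Matn1 was already 1.80 ± 0.20 higher in the nucleolin lines (adjusted p = 4.85e-05), whereas Cpz differed by -0.17 ± 0.21 (adjusted p = 0.661).

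The others of the 12 highest were Zscan4c (4.86), Gm20767 (4.74), Gm5662 (4.67), AF067061 (4.58), Casp14 (4.34), the decoy receptor Tnfrsf22 (4.24), Pramel20 (4.18), Pramel16 (4.15), Tcstv1 (3.998) and the membrane protein Ms4a10 (3.97). For all of them the departure from the difference without Tc also passed the test. Several belong to families of near-identical copies, the Zscan4, Tcstv and Pramel genes among them, so a probe may read more than the copy it is named for. A second Zscan4c probe gave 1.77. Some were not detected on every EGFP array with Tc, so that their differences rest partly on signals near background: Cpz, Gm20767 and Pramel20 were detected on 2 of the 3 and Pramel16 on 1. The call of Tnfrsf22 rests on 1 probe, and its 3 other probes gave 0.23, -0.06 and 0.01.

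The 12 lowest, after Ncl, were led by Chac1, an enzyme of glutathione breakdown under the control of Atf4, at -3.51. They included Notum, an enzyme that inactivates Wnt proteins (-2.86), Gdf1, a Nodal partner of the TGF-beta family (-2.80), Nupr1, a stress-induced chromatin protein (-2.60), and Ina, a neurofilament protein (-2.67). Ct55 (-3.35), Mipol1 (-3.03), Cela2a, a pancreatic elastase (-2.96), the copine Cpne9 (-2.81), the scaffold protein Mpp3 (-2.80) and the metallothionein Mt3 (-2.58) made up the rest. Several of these were near background on the nucleolin arrays with Tc: Ct55 was detected on 1 of 6, Mipol1 and Mt3 on 3, Mpp3 on 4 and Ina on 5. Several were called lower without Tc too: Ct55 at -2.25, Mipol1 at -1.69, Cela2a at -2.05, Cpne9 at -1.78, Mpp3 at -1.19 and Ina at -0.61. For Cpne9 and Mt3 the departure from the difference without Tc did not pass the test (adjusted p = 0.057 and 0.181). The call of Mt3 was lost without the replicate term (adjusted p = 0.0624).

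The largest departures from the uninduced state, apart from genes named already, were in Fas (3.88), the sorting nexin Snx20 (3.84), the simple-epithelium keratin Krt7 (3.74), dermokine (Dmkn, 3.58), secretin (Sct, 3.51) and the melanosome protein Mlana (3.48). All 6 were higher with Tc, from 2.71 for Dmkn to 3.65 for Mlana. Without Tc the difference ran from -0.87 for Dmkn to 0.17 for Mlana. Of the nucleolin arrays without Tc, Snx20 was detected on 1 of 6, Dmkn on 2 and Krt7 on 4, so these departures rest partly on signals near background. With Tc, 2 other Dmkn probes gave 3.09 and -0.03.

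**Figure D2:**
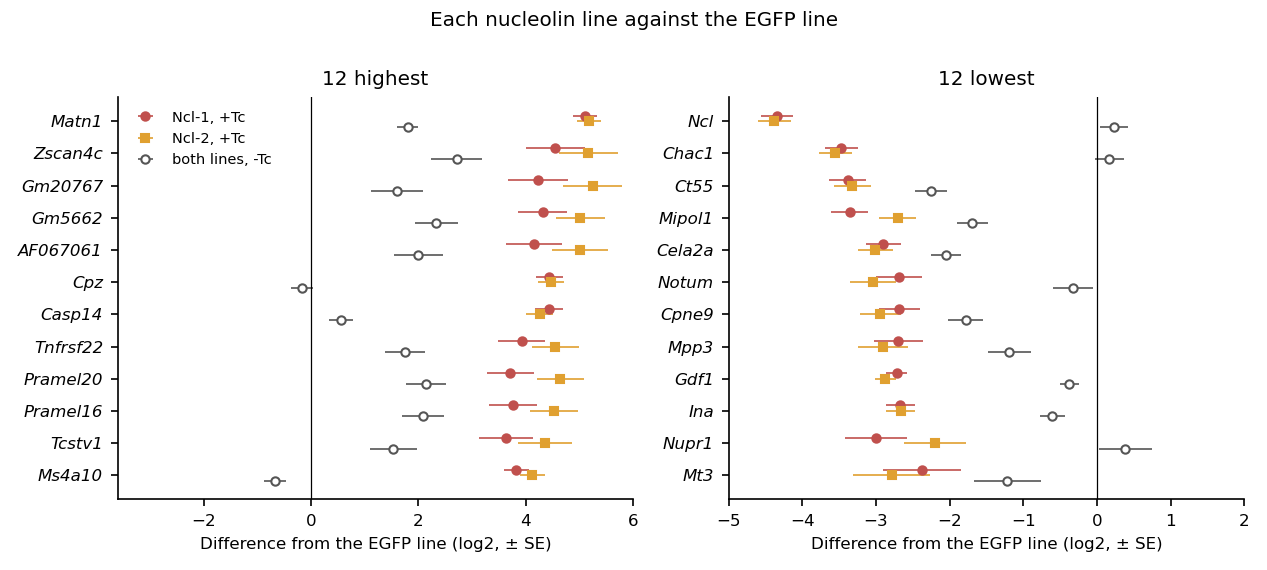
Log2 difference from the EGFP line, with bars of 1 standard error, for the 12 highest and 12 lowest genes, separately for the arrays labelled Ncl-1 and Ncl-2 with Tc and for both nucleolin lines without Tc. With Tc both labels lie on the same side of 0 for every gene shown, and the open symbols show that Matn1, Zscan4c, Ct55 and Cela2a had moved the same way without Tc, whereas Cpz, Ncl and Chac1 lay near 0.

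Gene groups were then read by function, as the number of measured members called in each direction beside the 21.4% higher and 22.8% lower of all genes. Probes entered if detected on all 3 arrays of some group. A gene silent elsewhere is thus measured only where it is high, which can raise a list's share in that direction. Targets of p53 had the largest share of higher members of the 33 lists. Of 43 measured, 31 were higher (72.1%) and 3 lower (6.98%), with a median difference of 0.86, against -0.07 without Tc. By role, 7 of 11 feedback and arrest genes, 12 of 14 death genes and 12 of 18 repair and metabolism genes were higher, and the 3 lower members were all among the last. The departure from the uninduced state was called upward for 22 of the 43. Without the replicate term 22 were higher and 2 lower.

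Fas, the death receptor, had log2 signals of 6.71, 6.24 and 6.52 on the EGFP arrays, 10.27, 9.91 and 9.72 on the Ncl-1 arrays and 10.35, 10.01 and 9.65 on the Ncl-2 arrays. The 6 nucleolin arrays lay within 1 unit of each other and more than 2 units above every EGFP array. The difference was 3.50 ± 0.17 (11.3-fold, adjusted p = 1.26e-09), against -0.39 ± 0.17 without Tc. Cdkn1a, the inhibitor of cyclin-dependent kinases that p53 uses to stop the cycle, was 10.92, 10.51 and 10.02 on the EGFP arrays, 12.14, 11.53 and 12.01 on the Ncl-1 arrays and 12.50, 11.93 and 11.46 on the Ncl-2 arrays. Its groups did not overlap and the difference was 1.44 ± 0.20 (adjusted p = 2.71e-05). Mdm2, which closes the feedback loop on p53, was 12.52, 12.03 and 13.01 on the EGFP arrays, 14.46, 13.97 and 14.24 on the Ncl-1 arrays and 14.59, 13.96 and 13.97 on the Ncl-2 arrays. All 6 stood above all 3, by 1.68 ± 0.21 (adjusted p = 1.45e-05), and without Tc it was not called (-0.65 ± 0.21, adjusted p = 0.0511).

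Other p53 targets that were higher included Tap1, a peptide transporter of antigen presentation (2.95, detected on 2 of 3 EGFP arrays), Ddit4, an inhibitor of mTORC1 (2.37), Phlda3, an inhibitor of Akt (2.22), the kinase Plk2 (1.997), Pidd1, a scaffold for caspase 2 (1.80), Ephx1, an epoxide hydrolase (1.62), Apaf1, the core of the apoptosome (1.59), and the BH3-only genes Pmaip1 (1.80) and Bbc3 (1.25). Pmaip1 was also higher without Tc, at 1.24, and a second Pmaip1 probe gave 0.71 with Tc and was not called (adjusted p = 0.0563). The 3 lower members were Dram1, of autophagy (-1.01), Rrm2b, a ribonucleotide reductase subunit (-0.85), and Xpc, which recognises DNA damage (-0.74). All 3 were lower without Tc as well, at -0.94, -0.86 and -0.49.

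The promoter of Cdkn1a is printed because Cdkn1a is the best-known arrest gene of the list and its window holds a full p53 motif. It covers 250 bases before the start of the gene in RefSeq's GRCm38.p6 (chr17:29090729-29090978, plus strand), 5′ to 3′ with the motif (CATG, any 6 bases and CATG again) in capitals, its first base at -48 from the start.
Cdkn1a: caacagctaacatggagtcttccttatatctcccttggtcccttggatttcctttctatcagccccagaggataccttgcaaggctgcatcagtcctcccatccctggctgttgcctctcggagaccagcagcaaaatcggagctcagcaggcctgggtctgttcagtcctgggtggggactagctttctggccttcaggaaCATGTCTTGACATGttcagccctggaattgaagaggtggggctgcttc
Windows of this length were available for 27025 genes, and 0.57% of them held this motif on either strand. Of the 36 listed targets with a window, 1 held it. A looser form, with only the C and G of each end fixed, overlaps it and was in 66% of all windows and in 31 of the 36. In all 10 motifs were looked for, chosen with earlier results known, and a match is a description of the letters, not a binding site.

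Most genes of ribosome assembly were lower. Of 53 measured, 32 were lower (60.4%) and 1, Brix1, higher (0.41), with a median difference of -0.52, against -0.18 without Tc, where 8 were lower. Nob1, the nuclease that makes the mature end of 18S ribosomal RNA, had log2 signals of 11.91, 11.86 and 11.53 on the EGFP arrays, 10.81, 11.12 and 10.70 on the Ncl-1 arrays and 10.91, 11.06 and 10.76 on the Ncl-2 arrays. The groups did not overlap and the difference was -0.87 ± 0.12 (adjusted p = 3.01e-05). Utp6, a subunit of the particle that processes 18S precursors, was lower at -0.77 ± 0.13. Bms1 (-1.33) and Pes1 (-0.91), which act in the small and the large subunit pathway, were called too, but their levels moved with the replicate and the calls were lost without the replicate term (adjusted p = 0.178 and 0.122). Without that term 8 of the 53 were lower, and without the first EGFP array 21 were.

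Of 12 genes for abundant nucleolar proteins 5 were lower (41.7%, 3 without the EGFP array of replicate 1 or 3 or either nucleolin array of replicate 1, and 1 without the replicate term) and 1 higher. The siRNA target Ncl is 1 of the 12 and 1 of the 5, and it is the 1 left without the replicate term. Apart from Ncl, those named by the rule were Nop56 (-0.78), Ddx21 (-0.69) and Gnl3 (-0.50), whose calls were lost without the replicate term (adjusted p = 0.133, 0.535 and 0.718). Npm1, nucleophosmin, differed by -0.12 ± 0.13 (adjusted p = 0.483). Of 15 genes of RNA polymerase I and its factors, 3 were lower (1 without the replicate term) and 1 higher. Taf1d, of the promoter selectivity factor, was at -0.75 ± 0.14, with a second probe at -0.41. Of the cytosolic ribosomal proteins 2 of 50 were lower, Rpl6 (-0.48) and Rpl10a (-0.30), none higher, and the median was 0.07. Neither of the 2 was called without the first EGFP array.

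**Figure D3:**
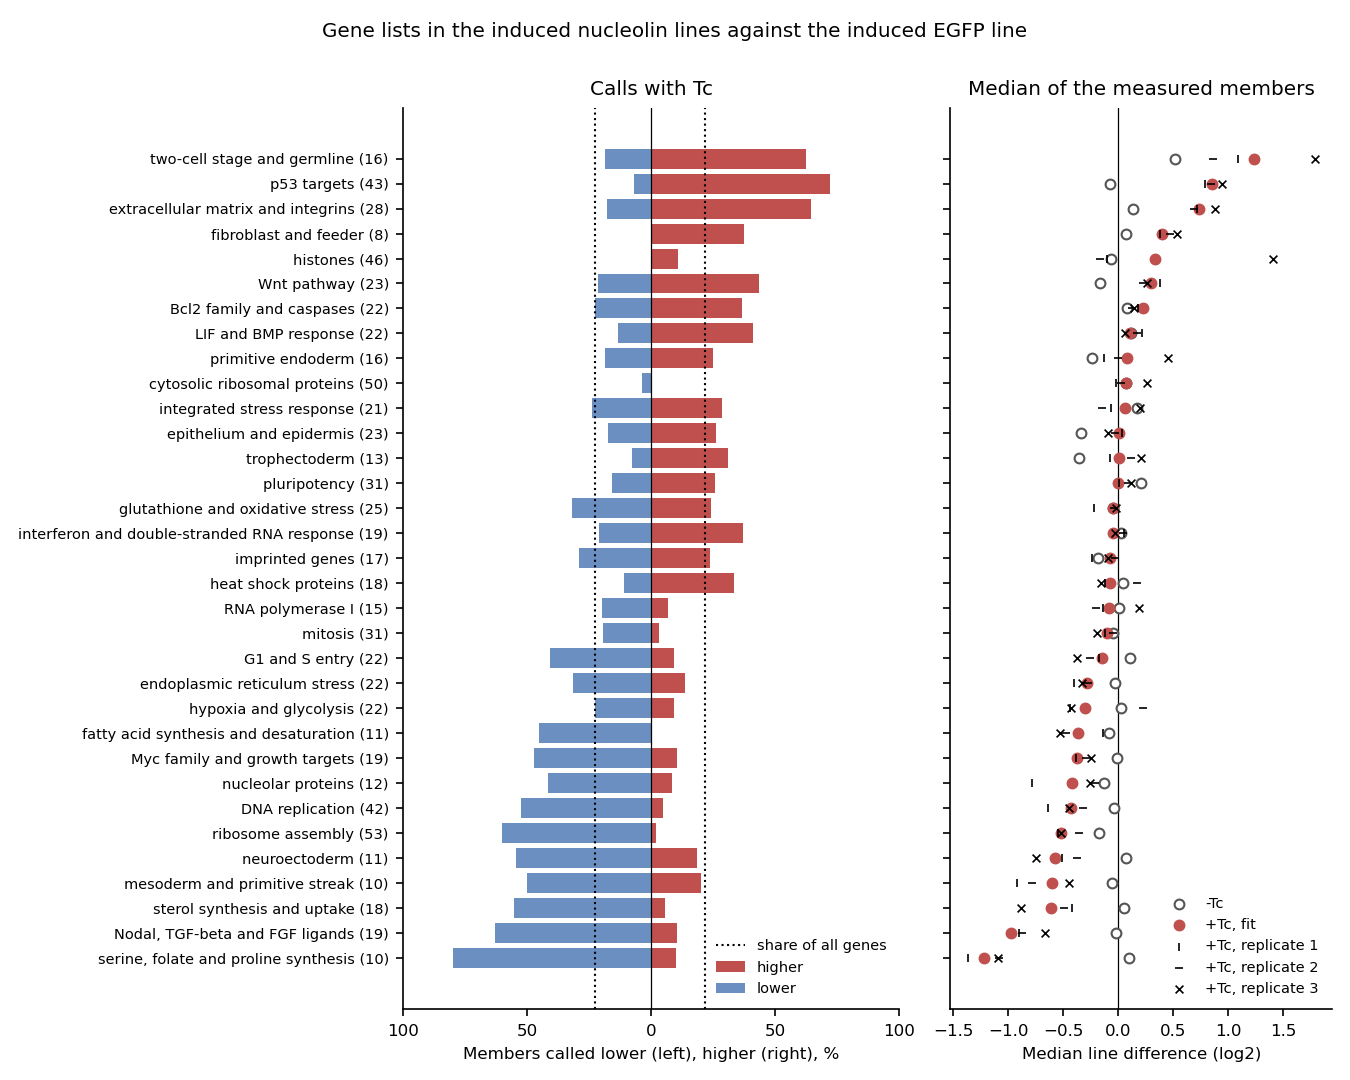
Left, the percentage of the measured members of each gene list called higher (to the right) or lower (to the left) in the nucleolin lines with Tc, with dotted lines at 21.4% and 22.8%, the shares among all genes. Right, the median log2 difference of each list with Tc in the fit and in each replicate, and without Tc; the p53 targets, the extracellular matrix list and the 2-cell list lie to the right, the lists of serine synthesis and of Nodal, TGF-beta and FGF ligands to the left, and the histone list differs between replicates.

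Genes of DNA replication followed. Of 42 replication genes 22 were lower (52.4%) and 2 higher, Orc4 (0.62) and Tyms (0.45), with a median of -0.43, against -0.04 without Tc. Cdc6, which loads the replicative helicase, had log2 signals of 10.22, 9.96 and 11.96 on the EGFP arrays, 7.92, 8.02 and 9.72 on the Ncl-1 arrays and 8.69, 8.74 and 9.33 on the Ncl-2 arrays. Replicate 3 was higher throughout, but within the replicates, and also across them, the nucleolin arrays lay below the EGFP arrays, with a difference of -1.98 ± 0.21 (adjusted p = 2.55e-06). A second Cdc6 probe gave -1.04. Tk1, the S-phase thymidine kinase, was 11.97, 11.92 and 11.08 on the EGFP arrays, 9.98, 10.35 and 9.07 on the Ncl-1 arrays and 10.13, 9.86 and 9.26 on the Ncl-2 arrays, without overlap, a difference of -1.88 ± 0.16 (adjusted p = 3.04e-07). The helicase subunit Mcm2 was lower at -1.11 ± 0.12. With no replicate term 10 of the 42 were lower and 0 higher.

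Of 22 genes of G1 and of entry into S phase, 9 were lower (40.9%) and 2, cyclin D1 and Rb1, higher; without the replicate term 4 were lower and 0 higher. Ccne1, cyclin E1, had log2 signals of 10.62, 10.71 and 10.14 on the EGFP arrays, 8.53, 8.91 and 8.90 on the Ncl-1 arrays and 9.07, 9.38 and 8.40 on the Ncl-2 arrays. Its groups did not overlap, with a difference of -1.62 ± 0.17 (adjusted p = 2.26e-06). Ccne2 was lower at -1.71 ± 0.18, and cyclin D2 (Ccnd2) at -1.68 ± 0.23 with Tc and -1.04 without. Other Ccnd2 probes gave -1.68 and -0.67 with Tc. Cyclin D1 (Ccnd1) was higher by 0.67 ± 0.17 (adjusted p = 0.00555). Rb1, the retinoblastoma protein that holds E2F factors back, was higher by 1.91 ± 0.20 (adjusted p = 2.24e-06, and 0.146 without the replicate term). Of 31 mitosis genes 6 were lower (19.4%, and 3 without the replicate term) and 1 higher, shares no greater than those of all genes; Mad2l1, of the spindle checkpoint, was at -1.28 with Tc and -1.13 without.

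The window before Cdc6 (chr11:98907901-98908150, plus strand, GRCm38.p6, from RefSeq) is printed because it holds the E2F motif TTTCCCGC, here on the opposite strand and in capitals, its first base at -138.
Cdc6: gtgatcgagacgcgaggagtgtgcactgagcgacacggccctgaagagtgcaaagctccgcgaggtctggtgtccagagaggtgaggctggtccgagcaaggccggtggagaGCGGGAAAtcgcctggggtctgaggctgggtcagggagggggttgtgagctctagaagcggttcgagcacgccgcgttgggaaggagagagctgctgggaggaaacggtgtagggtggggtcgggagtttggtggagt
This motif was in 1.03% of the 27025 windows and in 4 of 35 for the replication list (Cdc6, Gins3, Mcm7 and Orc3). In the Cdc6 window it overlaps a match to the looser p53 form. The other E2F form searched, TTTGGCGC, was in 0.485% of all windows and in 2 of the 35.

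Enzymes that make serine, folate-bound carbon and proline had the largest share of lower members of the 33 lists. Of 10 measured, 8 were lower (80%) and 1, Mthfd1, higher (0.72), and the median was -1.22, against 0.10 without Tc. Mthfd2, the mitochondrial folate enzyme, had log2 signals of 12.52, 12.84 and 12.52 on the EGFP arrays, 10.22, 10.05 and 9.90 on the Ncl-1 arrays and 10.53, 10.37 and 9.60 on the Ncl-2 arrays. The lowest EGFP array stood about 2 units above the highest nucleolin array, and the difference was -2.52 ± 0.19 (adjusted p = 9.02e-08), with -0.94 ± 0.19 without Tc. Psat1, the aminotransferase of serine synthesis, was 12.66, 12.67 and 13.80 on the EGFP arrays, 10.37, 11.45 and 11.38 on the Ncl-1 arrays and 10.43, 11.64 and 11.23 on the Ncl-2 arrays, again without overlap (-1.96 ± 0.25, adjusted p = 1.86e-05). Phgdh, the first enzyme of that pathway, was lower at -1.45 ± 0.22. Aldh18a1 (-1.58) and Pycrl (-1.28) of proline synthesis and the cytosolic Shmt1 (-1.16) were lower too. With no replicate term 6 of the 10 were lower.

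Most of those enzymes are known targets of Atf4, the transcription factor of the integrated stress response. Of the 21 genes listed for that response 6 were higher (28.6%) and 5 lower (23.8%), with a median of 0.06. Both shares are close to those of all genes. Chac1 was 11.44, 11.68 and 10.84 on the EGFP arrays, 8.09, 8.44 and 7.02 on the Ncl-1 arrays and 7.58, 7.97 and 7.76 on the Ncl-2 arrays. No nucleolin array came within 2 units of an EGFP array; the difference was -3.51 ± 0.19 (adjusted p = 5.71e-09) with Tc and 0.17 ± 0.19 without. Nupr1 was 10.51, 10.52 and 9.14 on the EGFP arrays, 6.41, 7.42 and 7.34 on the Ncl-1 arrays and 8.07, 8.97 and 6.53 on the Ncl-2 arrays, a wider spread that still left the groups apart (-2.60 ± 0.36, adjusted p = 3.82e-05). Atf4 itself was called lower at -0.61 (adjusted p = 0.0179). That call was lost without the replicate term, with the mean of its probes and without the first EGFP array. The amino acid transporter Slc7a3 was lower at -1.10, with a second probe at -0.29. In the other direction, Slc38a2, also an amino acid transporter, was higher by 0.97 ± 0.15, though its other probe gave -0.02. Ddit3 (1.28) and Atf3 (1.16), transcription factors of the response, were called higher, calls that were lost without the replicate term (adjusted p = 0.4 and 0.0545), which left 2 higher and 3 lower genes in the list. The call of Ddit3 was also lost without the first or the third EGFP array, and that of Atf3 without the second or the third EGFP array or the first Ncl-2 array. In replicates 1 and 2 both were higher in Ncl-2 (1.93 and 1.75) and not called in Ncl-1 (0.21 and -0.03), against shared control arrays, and the lines differed by the test (adjusted p = 0.023 and 0.00916).

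The windows before Chac1 (chr2:119350992-119351241, plus strand) and Nupr1 (chr7:126625471-126625720, minus strand), both from RefSeq's GRCm38.p6, are printed because these strongly lowered genes hold the same motif of Atf4 and its partners, TGATGCAA, in both on the opposite strand and in capitals, with first bases at -193 and -110.
Chac1: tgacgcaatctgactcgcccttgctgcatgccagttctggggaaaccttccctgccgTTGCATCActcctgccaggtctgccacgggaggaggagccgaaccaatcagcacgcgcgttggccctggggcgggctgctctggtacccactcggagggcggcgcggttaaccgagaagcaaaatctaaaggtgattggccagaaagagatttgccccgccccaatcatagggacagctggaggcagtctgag
Nupr1: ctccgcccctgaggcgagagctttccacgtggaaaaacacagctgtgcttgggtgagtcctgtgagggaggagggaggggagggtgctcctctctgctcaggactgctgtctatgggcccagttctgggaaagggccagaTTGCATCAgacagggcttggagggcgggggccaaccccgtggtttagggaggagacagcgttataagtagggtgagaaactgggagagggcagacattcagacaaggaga
The motif was in 0.918% of all windows and in 4 of the 18 for this list. Those 4 genes did not move together: Chac1 and Nupr1 were lower, Atf3 was called higher, and Slc7a11 differed by -0.32 (adjusted p = 0.21). In both windows the match overlaps the looser form TGATGNAAN, which was in 3.89% of all windows and in 5 of the 18.

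Of 22 genes of endoplasmic reticulum stress, 7 were lower (31.8%) and 3 higher (13.6%, and 1 without the replicate term). Herpud1, of the degradation of misfolded proteins, was lower at -1.67 ± 0.16 (adjusted p = 1.2e-06), the disulfide isomerase Pdia4 at -1.47 ± 0.17 and the transcription factor Xbp1 at -0.97 ± 0.15. Derl3 was higher by 1.34 ± 0.14. Pdia4 was lower without Tc too, at -0.98.

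Next came the synthesis of lipids. Of 18 genes of sterol synthesis and uptake 10 were lower (55.6%) and 1, Mvk, higher (0.76), with a median of -0.62, against 0.05 without Tc. Lss, which closes the sterol rings, had log2 signals of 9.61, 10.06 and 10.17 on the EGFP arrays, 8.33, 9.03 and 8.66 on the Ncl-1 arrays and 8.72, 8.90 and 9.001 on the Ncl-2 arrays. The nucleolin arrays were all below the EGFP arrays, with a difference of -1.17 ± 0.14 (adjusted p = 7.36e-06), but a second Lss probe gave -0.07. Msmo1, a sterol demethylating oxidase, was lower at -1.36 ± 0.19 and Fdps, which makes farnesyl diphosphate, at -1.07 ± 0.14. Of 11 genes of fatty acid synthesis and desaturation 5 were lower and none higher, led by the desaturase Scd2 (-1.98 ± 0.21, adjusted p = 2.58e-06). Without the replicate term 4 sterol genes and 1 fatty acid gene were lower, and without the second or the third EGFP array 2 or 3 fatty acid genes were.

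The window before Lss (chr10:76531355-76531604, plus strand, GRCm38.p6, from RefSeq) shows the motif CCAAT of the factor NF-Y, on the opposite strand and in capitals, its first base at -62, because every sterol gene with a window held it.
Lss: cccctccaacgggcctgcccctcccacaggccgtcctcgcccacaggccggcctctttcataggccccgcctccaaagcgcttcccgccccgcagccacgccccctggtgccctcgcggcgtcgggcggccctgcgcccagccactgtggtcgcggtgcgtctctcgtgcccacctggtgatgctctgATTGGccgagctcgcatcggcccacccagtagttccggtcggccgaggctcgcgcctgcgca
CCAAT is a short motif, present in 37.5% of all windows, and it was in 15 of 15 for the sterol list. The sterol element TCACNCCAC was in 1.22% of all windows and in 0 of the 15. No other motif searched overlaps the match printed. CACGTG was in 6.86% of all windows and in 5 of 46 for ribosome assembly, and TATAAA in 14.3% and in 1 of 36 for the p53 targets.

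**Figure D4:**
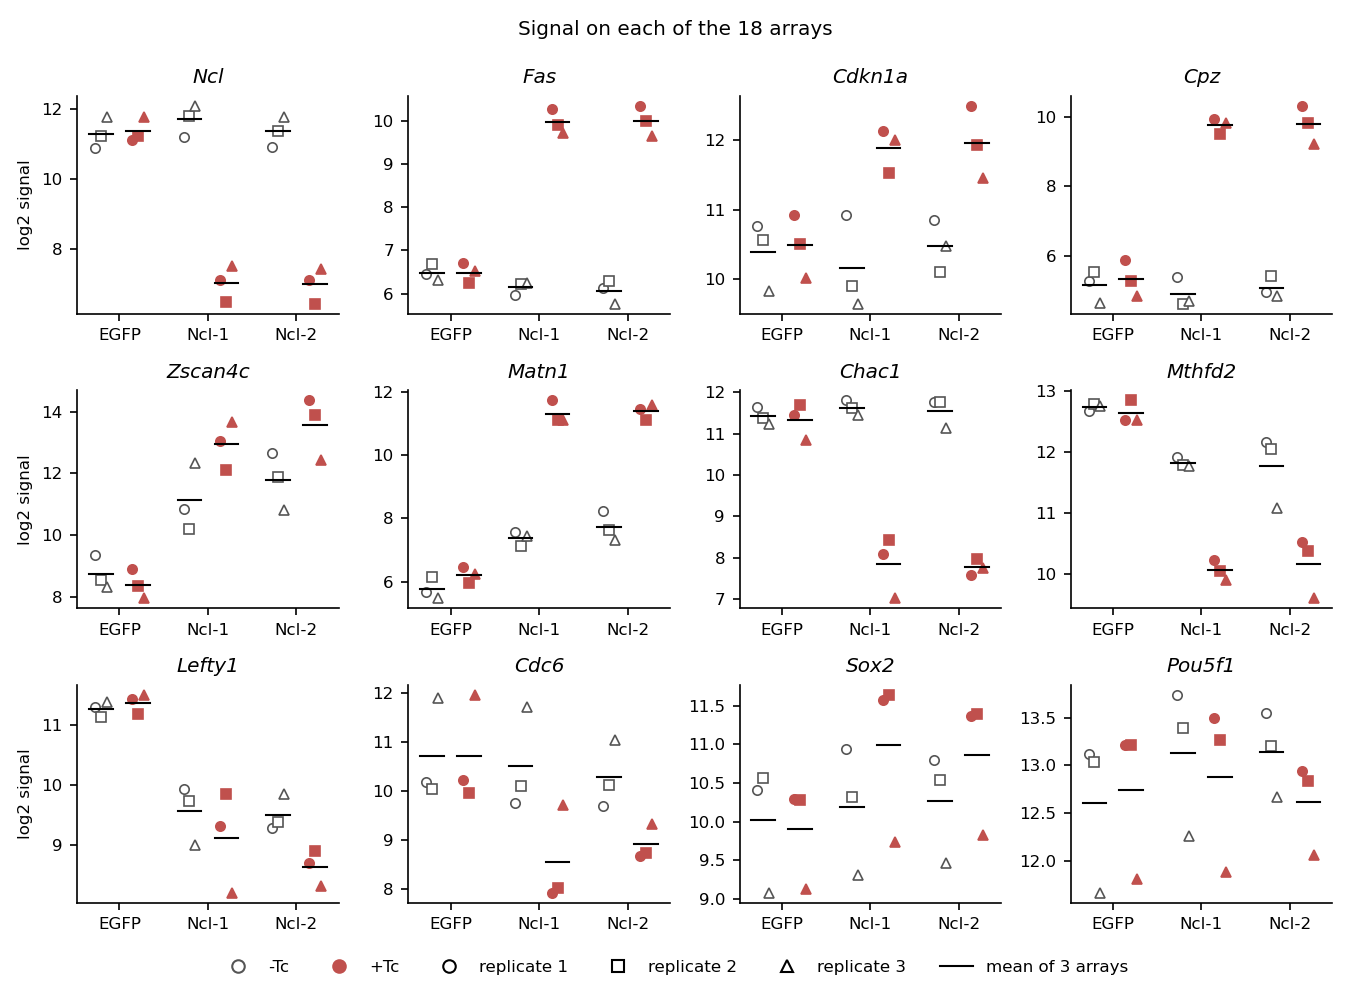
Log2 signal of 12 genes on every array, by line, with open symbols without Tc and filled symbols with Tc, a shape for each replicate number and a bar at the mean of 3 arrays. Ncl, Chac1 and Mthfd2 are low and Fas, Cdkn1a, Cpz and Matn1 high on the nucleolin arrays with Tc, without overlap with the EGFP arrays with Tc, whereas Pou5f1 and Sox2 overlap between lines and are lower in replicate 3.

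Genes of pluripotency were called in both directions, higher in a share near that of all genes and lower in a smaller one. Of 31 measured 8 were higher (25.8%, and 5 without the EGFP array of replicate 1) and 5 lower (16.1%), with a median of 0.00. Without the replicate term 2 were higher and 3 lower. Pou5f1 had log2 signals of 13.22, 13.21 and 11.81 on the EGFP arrays, 13.50, 13.26 and 11.87 on the Ncl-1 arrays and 12.94, 12.84 and 12.05 on the Ncl-2 arrays. The groups overlapped and the difference was 0.00 ± 0.16 (adjusted p = 1). Nanog differed by 0.24 ± 0.19 (adjusted p = 0.317). Sox2 was 10.30, 10.28 and 9.12 on the EGFP arrays, 11.58, 11.64 and 9.74 on the Ncl-1 arrays and 11.37, 11.40 and 9.82 on the Ncl-2 arrays. Within each replicate both nucleolin arrays were above the EGFP array, and the difference was 1.03 ± 0.16 (adjusted p = 8.65e-05), but replicate 3 lay so much lower that the groups overlapped, and the call was lost without the replicate term (adjusted p = 0.221).

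Other members were clearer. Fbxo15, a target of Pou5f1 and Sox2, was higher by 1.65 ± 0.17 (adjusted p = 1.61e-06), and Tfcp2l1, a naive-state factor, by 0.93 ± 0.15 with Tc and 0.86 without. Lin28a, which blocks let-7 processing, was lower at -1.24 ± 0.20 (adjusted p = 0.000146), against 0.30 without Tc. Of 22 genes that respond to LIF and BMP, 9 were higher (40.9%) and 3 lower, with Id2 at 2.14 ± 0.22 and Fos at 2.15 ± 0.22. A second Id2 probe gave 1.09. With no replicate term 4 of the 22 were higher and 1 lower, and without the second EGFP array 5 were.

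Signals that pattern the early embryo were mostly lower. Of 19 ligands and regulators of Nodal, TGF-beta and FGF signalling, 12 were lower (63.2%) and 2 higher, with a median of -0.97, against -0.02 without Tc. Lefty1, a Nodal inhibitor, had log2 signals of 11.43, 11.20 and 11.51 on the EGFP arrays, 9.33, 9.85 and 8.21 on the Ncl-1 arrays and 8.71, 8.91 and 8.32 on the Ncl-2 arrays, all 6 below all 3. The difference was -2.49 ± 0.27 (adjusted p = 3.41e-06), but without Tc it was already -1.74 ± 0.27 (adjusted p = 0.000716), and the departure did not pass the test (-0.75, adjusted p = 0.218). The values for Lefty2 were -2.57 with Tc and -1.64 without. Gdf1 was 9.34, 9.41 and 9.07 on the EGFP arrays, 6.74, 6.61 and 6.32 on the Ncl-1 arrays and 6.79, 6.31 and 6.11 on the Ncl-2 arrays. It was not called without Tc (-0.37 ± 0.12, adjusted p = 0.0563), and its departure with Tc passed the test (-2.42, adjusted p = 6.71e-07).

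Tgfb1, a growth factor that signals through Smad proteins, was lower at -1.95 ± 0.20 and Fgf17 at -2.52 ± 0.30, with a second Fgf17 probe at -1.13. The 2 higher members were Nodal and Bmp7. Nodal had log2 signals of 11.99, 11.70 and 11.35 on the EGFP arrays, 13.47, 13.02 and 12.92 on the Ncl-1 arrays and 13.21, 12.60 and 12.85 on the Ncl-2 arrays. It was thus higher on every nucleolin array, by 1.33 ± 0.18 (adjusted p = 2.49e-05), while its inhibitors Lefty1 and Lefty2 were lower. Bmp7 was higher by 1.55 ± 0.26. Fgf8 was not well above background on the nucleolin arrays and was at least 1.2-fold higher in the EGFP line (adjusted p = 0.00525).

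Genes of the Wnt pathway were called in both directions. Of 23 measured 10 were higher (43.5%) and 5 lower (21.7%, and 3 without the replicate term). The probes used for Wnt4, Wnt5a, Wnt7b, Wnt8a, Wnt8b and Wnt10a entered only through the nucleolin arrays with Tc. In no other group were they detected on every array, so the share of higher members may be partly set by this filter. The ligands Wnt5a (2.70 ± 0.27) and Wnt3a (2.31 ± 0.34) were higher, Wnt5a being detected on 2 of 3 EGFP arrays; its 2 other probes gave 0.67 and 1.58. Wnt8a and Wnt8b were not well above background on the EGFP arrays and were at least 3.72-fold and 2.37-fold higher in the nucleolin lines (adjusted p = 0.000128 and 2.55e-06), bounds that set the bright group's mean against the lowest signals detected. Notum, a Wnt target that inactivates the ligands, was lower at -2.86 ± 0.27 (adjusted p = 9.4e-07), and Lef1, a transcription factor of the pathway, at -1.66 ± 0.17, detected on 1 of 6 nucleolin arrays.

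The largest median of the 33 lists was that of the 2-cell stage and germline, genes that a small share of embryonic stem cells switches on at any time. Of 16 measured, 10 were higher (62.5%) and 3 lower (18.8%), with a median of 1.24, and the same counts were found without the replicate term. Zscan4c, a zinc finger protein that marks that state, had log2 signals of 8.89, 8.34 and 7.94 on the EGFP arrays, 13.05, 12.10 and 13.68 on the Ncl-1 arrays and 14.37, 13.88 and 12.43 on the Ncl-2 arrays. All 6 stood at least 3 units above all 3, by 4.86 ± 0.47 (adjusted p = 1.21e-06). The nucleolin lines already stood apart without Tc, with 9.36, 8.52 and 8.32 for EGFP, 10.85, 10.18 and 12.34 for Ncl-1 and 12.65, 11.87 and 10.81 for Ncl-2, a difference of 2.72 ± 0.47 (adjusted p = 0.00164). The departure with Tc was 2.14 ± 0.67 (adjusted p = 0.0429).

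Across the list, 7 of the 10 higher and all 3 lower members were called in the same direction without Tc, and for 7 members the departure was called upward. Tcstv1 was higher by 3.998 with Tc and 1.54 without, Tcstv3 by 3.81 and 1.70, Tmem92 by 3.82 and 1.70, and Gm428 by 3.46 and 2.55. The arginase Arg2 was higher by 2.51 with Tc, and was detected on 1 of 3 EGFP arrays. The lower members were 2 homeobox genes of the reproductive cluster on the X chromosome, Rhox6 (-1.03 with Tc) and Rhox9 (-0.98 with Tc and -1.72 without), and Asz1, of germ cells (-0.91 with Tc). Of the nucleolin arrays with Tc, Rhox6 was detected on 2 of 6 and Asz1 on 1, and without Tc Rhox6 was not well above background on any. Dppa3, a germline and naive-state gene, was lower without Tc, at -2.71, and was not called with it (-0.38 ± 0.34, adjusted p = 0.383).

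Of 28 genes of the extracellular matrix and its receptors, 18 were higher (64.3%) and 5 lower (17.9%), with a median of 0.74, against 0.13 without Tc. The probes used for Cpz and Matn4 entered only through the nucleolin arrays with Tc. After Matn1 and Cpz came Lamb3, a laminin chain (2.47 ± 0.21), Nid1, nidogen (1.86 ± 0.17, and 1.45 without Tc), and Ccn2, connective tissue growth factor (1.72 ± 0.26). A second Nid1 probe gave 0.55 with Tc. The lower ones were Matn2, not well above background on the nucleolin arrays and at least 2.32-fold higher in the EGFP line (adjusted p = 4.78e-06), the metalloprotease Mmp14 (-0.57) and the integrins Itga5 (-0.60), Itgb1 (-0.75, detected on 4 of 6 nucleolin arrays) and Itgb7 (-0.74). Without the replicate term 12 were higher and 1 lower, and without the second EGFP array 2 were lower.

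Fibroblasts also make such proteins. Of 8 fibroblast and feeder genes that could be measured 3 were higher, Col5a1 (1.06), Mmp2 (0.99) and Col6a1 (not well above background in the EGFP line and at least 1.13-fold higher in the nucleolin lines, adjusted p = 0.00475). The defining fibroblast collagens Col1a1, Col1a2 and Col3a1 were detected on at most 2 of 18 arrays, and Dcn and Lum on 0. Of 23 genes of epithelium and epidermis 6 were higher (26.1%) and 4 lower (17.4%), shares near those of all genes. Casp14 (4.34), Krt7 (3.40) and the transcription factor Grhl3 (1.12) were higher and Krt17 lower (-1.49).

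Lineage lists held calls in both directions. The shares were near those of all genes for primitive endoderm (25% higher and 18.8% lower) and for imprinted genes (23.5% and 29.4%). Of 13 trophectoderm genes 4 were higher and 1, the imprinted Phlda2, lower (-1.57); Tfap2c, a trophoblast and germline factor, was higher by 2.49 ± 0.26 and Ascl2, detected on 1 of 3 EGFP arrays, by 1.34 ± 0.21. Of 16 primitive endoderm genes 4 were higher (2 without the replicate term, the EGFP or either nucleolin array of replicate 3, or the Ncl-2 array of replicate 1) and 3 lower (1 without the replicate term or the EGFP or Ncl-2 array of replicate 1 or 2), with Krt19 at 1.72 and the endocytic adaptor Dab2 at -2.27 with Tc and -1.88 without. Of 10 mesoderm and primitive streak genes 5 were lower and 2 higher, with Meox1, detected on 2 of 6 nucleolin arrays, at -2.36 ± 0.16 and Lmo2 at -1.42 ± 0.14, while Gsc, goosecoid, was not well above background in the EGFP line and at least 2.89-fold higher in the nucleolin lines (adjusted p = 4.14e-05). Of 11 neuroectoderm genes 6 were lower and 2 higher (1 without the replicate term). Gbx2 was lower at -1.26 ± 0.21 and Meis2 higher by 0.83 ± 0.12 with Tc and 1.45 without. Other Meis2 probes gave 0.48 with Tc and 0.38, the latter not called (adjusted p = 0.0776). Among 17 imprinted genes 4 were higher and 5 lower (2 without the replicate term or the EGFP array of replicate 3, and 3 without the EGFP array of replicate 2, the Ncl-1 array of replicate 1 or 2 or the Ncl-2 array of replicate 3), with Dlk1, a Notch ligand relative, at -1.83.

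Stress genes were called in both directions. For the glutathione list the shares, 24% higher and 32% lower, were not far from those of all genes. Of 18 heat shock genes 6 were higher (33.3%) and 2 lower. Hspa1a, the inducible Hsp70, was higher by 2.52 ± 0.18, the small heat shock protein Cryab by 2.90 ± 0.39 and Hspb8 by 1.79 ± 0.29. The Hspa1a probe may also read the near-identical copy Hspa1b. Hspa1b has a probe of its own, detected with Tc on 1 of 3 EGFP arrays and 4 of 6 nucleolin arrays. Without the second EGFP array 5 heat shock genes were lower, and without the replicate term none. Of 19 interferon and double-stranded RNA genes 7 were higher and 4 lower (2 without the second EGFP array or the replicate term): the RNA sensor Ddx58 was lower at -1.75 and Ifit2, detected on 4 of 6 nucleolin arrays, at -1.70, and Oas2 was higher by 1.46 and Ifitm3 by 1.49. Of 25 glutathione and oxidative stress genes 6 were higher (2 without the third EGFP array) and 8 lower (5 without the first), and without the replicate term 2 were higher and 2 lower, with the peroxidase Gpx3 at 2.41, the transferase Gsto1 at 1.67 and the microsomal Mgst1 at -1.88.

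Of 22 hypoxia and glycolysis genes 2 were higher and 5 lower (3 without the first EGFP array and 2 without the third), and without the replicate term 1 was higher and 2 lower, with the muscle enolase Eno3 at -1.68 and the triose isomerase Tpi1 at -0.62. In the Bcl2 and caspase list, 8 of 22 were higher and 5 lower, and without the replicate term 4 and 3. Apart from the p53 targets in it and Casp14, Cycs, cytochrome c, was lower at -1.37 ± 0.13, with -0.92 without Tc. A second Cycs probe gave -0.72 with Tc. Of 19 Myc family and growth genes 9 were lower (47.4%, and 5 without the first EGFP array) and 2 higher. Mxd4, an antagonist of Myc, was higher by 1.79 ± 0.21 (adjusted p = 6.85e-06). Other Mxd4 probes gave 1.19 and 0.85. Myc itself was lower at -0.97 ± 0.24 (adjusted p = 0.00431), a call lost without the replicate term (adjusted p = 0.172), where 0 of the list were lower and 1 higher.

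Histone genes depended on 1 replicate. Of 46 measured 5 were higher (10.9%), among them H3c3 (1.13 ± 0.34), and none lower. The median of the list was -0.10 in replicate 1, -0.17 in replicate 2 and 1.41 in replicate 3. Without the EGFP array of replicate 3, and also without the replicate term, 0 were called. Without that of replicate 1 the count was 1, and without either nucleolin array of replicate 3 it was 2.

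**Figure D5:**
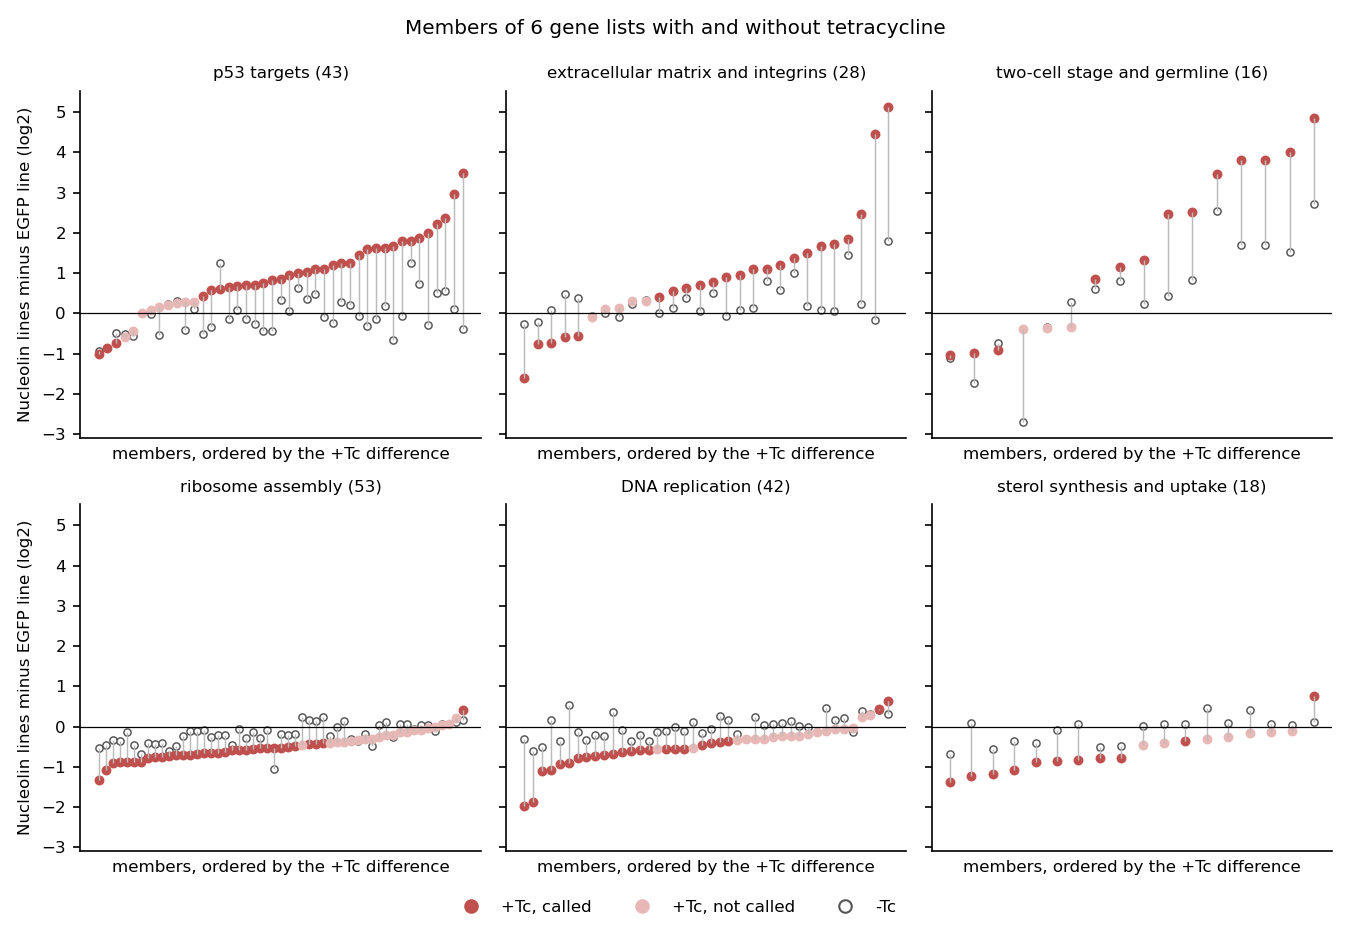
Log2 difference between the nucleolin lines and the EGFP line for the measured members of 6 lists, as 1 point per gene with Tc (dark where called, pale where not) and without Tc (open). Most p53 targets lie above 0 with Tc and around 0 without, most members of the ribosome assembly, replication and sterol lists lie below 0 with Tc, and several genes of the 2-cell list lie above 0 in both states.

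The 2 nucleolin lines, finally, were set against each other to see which of these differences they shared. By label and over all 3 replicates, 3857 genes (36.5%; 18.6% higher and 17.9% lower) differed from the EGFP line in Ncl-1 and 3990 (37.8%; 18.5% and 19.3%) in Ncl-2, against shared control arrays. The Ncl-1 minus Ncl-2 comparison with Tc called 0 of 10557 genes by limma (0%), with 267 at an unadjusted p below 0.05. Since the labels of replicate 3 run against those of replicates 1 and 2, that count says little. With replicates 1 and 2 only, which left 5 residual degrees of freedom, 313 genes (2.96%) were called, 134 higher (1.27%) and 179 lower (1.7%) in Ncl-1, and 304 of the 313 (97.1%) had the opposite sign in replicate 3.

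The lines did not differ by the test in the depletion itself. The Ncl-1 minus Ncl-2 difference was 0.01 ± 0.32 for Ncl, -0.09 ± 0.22 for Fas, 0.14 ± 0.26 for Matn1, 0.12 ± 0.17 for Gdf1 and -0.31 ± 0.17 for Mthfd2, none of them called (adjusted p of 0.416 or higher). Of the 16 genes of the 2-cell stage and germline, 8 were lower in Ncl-1 than in Ncl-2 and 0 higher, where 1.7% and 1.27% of all genes were. The Ncl-1 minus Ncl-2 difference was -1.55 ± 0.16 for Zscan4c (adjusted p = 0.00244), -1.52 for Tcstv1, -1.65 for Pramel16, -1.89 for AF067061 and -2.04 for Gm20767. These genes were lower in Ncl-1 without Tc too, in both replicates, so the lines stood apart without induction as well. Zscan4c was then 10.85 and 10.18 in Ncl-1 and 12.65 and 11.87 in Ncl-2. Gm20767 was 5.63 and 5.20 in Ncl-1 and 7.74 and 7.58 in Ncl-2. Relative to the EGFP line, Zscan4c was higher by 3.96 in Ncl-1 and 5.50 in Ncl-2; the lines share their control arrays in these values. Nupr1 was -1.61 ± 0.36 in Ncl-1 relative to Ncl-2, and Krt7 -1.55 ± 0.21.

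Other genes stood further apart between the lines. Gpnmb, a melanosomal glycoprotein, was -3.23 ± 0.28 in Ncl-1 relative to Ncl-2 and the imprinted growth factor Igf2 was -2.71 ± 0.33. In replicate 3 the same differences were 2.26 and 2.60. Eif2s3y, a gene of the Y chromosome, was 2.35 ± 0.35 and, in replicate 3, -3.09. For Eif2s3y the EGFP line changed in replicate 3 too. Its log2 signals without Tc were 6.56, 5.98 and 9.05, and with Tc it reached 8.76 in replicate 3. The arrays labelled Ncl-1 with Tc were at 8.12, 8.83 and 7.66. The reversed sign of Eif2s3y thus came with a replicate change that the control line shared.

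A run of neighbouring genes on chromosome 17 showed the conflict gene by gene. Slc9a3r2, which encodes a scaffold of membrane transporters, had log2 signals with Tc of 8.87, 8.63 and 7.84 for EGFP, 8.91, 8.67 and 5.98 for Ncl-1 and 6.69, 6.23 and 8.02 for Ncl-2. Without Tc they were 8.70, 8.52 and 7.68 for EGFP, 8.86, 8.40 and 6.33 for Ncl-1 and 6.10, 6.36 and 7.94 for Ncl-2. The low arrays were those labelled Ncl-2 in replicates 1 and 2 and those labelled Ncl-1 in replicate 3, in both drug states. In RefSeq's order of genes its measured neighbours Pkd1, Tsc2, Nthl1 and Zfp598 were called lower in Ncl-2 in replicates 1 and 2 as well (adjusted p = 0.0122, 0.00231, 0.00406 and 0.00235), with Npw between them not called (adjusted p = 0.213). Their signs were reversed in replicate 3. The next measured genes on either side, Rab26 on 1 and Syngr3 on the other, were not called (adjusted p = 0.255 and 0.267).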

How the data were processed

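Total RNA of 18 samples was measured on 18 Illumina Mouse-6 v2 BeadChips (6 groups of 3). Per the labels' protocols, RNA came from a Trizol extraction followed by column clean-up and DNase I, and was labelled as biotinylated cRNA, and GenomeStudio 2010.1 is named in the submitters' processing notes. The authors deposited an intensity and a detection p-value for 45281 probes on each array. The deposited intensities are not normalised between arrays, and the background option and the normalisation of the authors' second table of intensities, used as an alternative, are not given in the sources used here.

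Intensities were background-corrected with limma 3.58.1 in R 4.3.3 (nec, normexp with negative controls inferred from the detection p-values, offset 16), quantile-normalised and turned to log2. Probes entered the tests if detected (p below 0.05) on each of the 3 arrays of some group, as 19154 were. The probe table gave 34885 probes 1 gene symbol, 18 several and 10378 none, and 34807 matched RefSeq's GRCm38.p6 gene table. Each of 10557 genes was represented by its brightest kept probe. Other kept probes of a gene could give smaller or larger differences, so a size given is that of 1 probe. Of 3998 genes with several kept probes, 40 had probes called in both directions.

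A limma model held 6 group means and the replicate number as a block over all 18 arrays, and adjusted p-values are limma's, with Benjamini-Hochberg adjustment over 10557 genes. Same-numbered arrays deviated together from their group means: over 45 pairs r ran from 0.2983 to 0.9581. No 2 arrays were identical. On simulated data for the main comparison, of 50 genes changed at each size 20% were called at 0.5 log2 units, 86% at 1 and 100% at 2 and 3. Of the genes left unchanged 10 were called. The simulation changed a far smaller share of genes than the 44.2% called in the main comparison. The adjusted threshold therefore differs, and these shares do not give the sensitivity of that comparison. For arrays, their number limits the precision.

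Genes named were a fixed set (Ncl, Npm1, Nanog, Pou5f1, Sox2, Cdkn1a, Mdm2), the 12 highest and 12 lowest that kept their side in every replicate, the 6 highest and 6 lowest also called without Tc, the 6 largest departures and the 4 smallest p-values of each of 33 lists. Others were chosen after their values were seen, the genes that separate the nucleolin lines and the promoters and motifs included. The members and lists were chosen with earlier results of these data known. Promoters were RefSeq's, with 250 bases before the start searched on both strands.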

Additional observations from a re-analysis of the deposited data

How the results depend on the processing

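Without the replicate block, 2188 genes passed in the comparison of both nucleolin lines with the EGFP line (4666 with it), 1504 for the arrays labelled Ncl-1 (3857 with it), 1650 for those labelled Ncl-2 (3990), 234 between the lines without Tc (1538) and 347 for the departure from them (1513). The share of higher calls was then 55.7% in place of 48.5%. Array weights gave 203 genes between the nucleolin lines, 2836 without Tc and 4067 for the departure. Between the nucleolin lines the authors' table gave 1 gene and replicates 1 and 2 gave 313. Leaving out 1 array at a time gave 3516 to 4754 genes for both lines, 2931 to 4018 for Ncl-1, 2986 to 4134 for Ncl-2, 0 to 29 between them, 721 to 1702 without Tc and 990 to 1674 for the departure. The lowest values, 3516 and 721, came without the EGFP array of replicate 3 with and without Tc, and the 29 without the Ncl-1 array of replicate 3 with Tc. Background correction, offset, median scaling, detection filter, probe choice and a fit of the 9 arrays with Tc (which gives no value without Tc) kept each count within 1.5 times.

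Pou5f1 (0.00) took a positive sign without background correction (1e-04), in the authors' table (0.0114), with array weights (0.0512) and without 1 array in 4 cases, with values from -0.0838 to 0.0964 when 1 array was left out. Nanog (0.24) ran from -0.0516, without the EGFP array of replicate 2, to 0.4849. Of 202 genes named or listed for naming, each left-out array gave a call or non-call unchanged in 3516 cases, lost in 110, gained in 5 and reversed in 5. Signal over background limits genes detected on none or some of a group's arrays; the former are given as bounds.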
